A study of Mus musculus with 8 samples.

Results

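The genes examined here were 7 genes for Fc receptors and their signalling adaptors, namely Fcgr1, Fcgr3, Fcgr4, Fcgr2b, Fcer1g, Tyrobp and Fcgrt. Their binding sites were the ChIP-Seq peaks whose centre lay in the gene body or within 20 kb of it in the GENCODE annotation of the mouse genome (GRCm38, mm10). This gave 77 peaks of 67673 in 4 lists, at 75 distinct positions, because 2 intervals had the same coordinates in both lines. A CEBPA site common to the windows of Fcgr3 and Fcgr4 was counted once. Of these 77 peaks, 11 of 5288 were PU.1 peaks of PU.1- cells, 19 of 15683 were PU.1 peaks of PU.1+ cells, 25 of 26119 were CEBPA peaks of PU.1- cells and 22 of 20583 were CEBPA peaks of PU.1+ cells.

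The cells were clones of X18.1.1, a mouse acute myeloid leukaemia line that arose after irradiation. In this line 1 copy of the Pu.1 gene is deleted, and the other carries a substitution in the DNA-binding domain together with a deletion in the PEST region. PU.1- cells carried an empty retroviral vector and so had only the mutant protein. PU.1+ cells carried PuER, wild-type PU.1 fused to an oestrogen receptor domain that 4-hydroxytamoxifen (OHT) switches on, in addition to the mutant protein. Both clones received 100 nM OHT for 2 h before chromatin immunoprecipitation of PU.1 or CEBPA. Each combination of antibody and clone was 1 library, so the differences below have no replicate check, no test between the lines could be made, and clone and PuER cannot be told apart. The lists hold coordinates of intervals 400 bp wide, with no height or read count. A peak was therefore either called or not called, and the depth of the libraries is unknown.

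Fc receptors let myeloid cells sense the constant part of antibodies. Fcgr1, Fcgr3 and Fcgr4 encode activating receptors for IgG that signal through the common gamma chain encoded by Fcer1g, whereas Fcgr2b encodes the inhibitory receptor. Tyrobp encodes DAP12, a related adaptor of many myeloid receptors, and Fcgrt encodes the neonatal Fc receptor, which protects IgG from breakdown inside the cell. PU.1, an ETS family factor that binds sites with a GGAA core, and CEBPA, a leucine-zipper factor, are regulators of myeloid differentiation, and Fc receptor genes have long been known as PU.1 targets in macrophages.

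The sequences under the central 80 bp of the peaks that the results turn on are printed here so that the sites can be read. All are from the plus strand of GRCm38 (RefSeq). Capitals in the following group mark GGAAGT, the ETS site searched for, on either strand. The group shows new sites near the starts of Fcgr1, Fcer1g and Tyrobp, distal new sites of Tyrobp and Fcgr4, and a site of Fcgr2b that was bound in both lines. The window near the start of Tyrobp held no such site.
Fcgr1, 45 bp upstream, PU.1 called in PU.1+ alone, chr3:96293975-96294054: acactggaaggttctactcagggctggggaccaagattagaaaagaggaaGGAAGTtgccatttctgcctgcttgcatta
Fcer1g, 343 bp upstream, PU.1 called in PU.1+ alone, chr1:171234669-171234748: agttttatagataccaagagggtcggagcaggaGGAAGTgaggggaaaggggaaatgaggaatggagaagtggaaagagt
Tyrobp, 946 bp upstream, PU.1 called in PU.1+ alone, chr7:30412775-30412854: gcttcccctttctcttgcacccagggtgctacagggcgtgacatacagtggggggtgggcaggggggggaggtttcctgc
Tyrobp, 19127 bp upstream, PU.1 called in PU.1+ alone, chr7:30394594-30394673: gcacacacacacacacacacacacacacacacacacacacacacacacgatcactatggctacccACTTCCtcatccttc
Fcgr4, 12392 bp upstream, PU.1 called in PU.1+ alone, chr1:171006489-171006568: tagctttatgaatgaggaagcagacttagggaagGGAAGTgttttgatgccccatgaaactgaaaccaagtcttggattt
Fcgr2b, 23151 bp downstream of the start, PU.1 shared, chr1:170953357-170953436: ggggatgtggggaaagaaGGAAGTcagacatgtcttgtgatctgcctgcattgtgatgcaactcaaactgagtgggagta

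The following pair has in capitals GGAA followed, after any 2 bases, by GAAA. This is a PU.1 core beside the core of an interferon regulatory factor site and is referred to as the PU.1-IRF site. They are shown because this site was found at 3 of the 12 new PU.1 peaks, and the Fcgr1 sequence holds it on both strands.
Fcgr1, 6938 bp upstream, PU.1 called in PU.1+ alone, chr3:96300868-96300947: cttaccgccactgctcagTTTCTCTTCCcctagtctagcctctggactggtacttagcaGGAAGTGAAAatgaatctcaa
Fcgr2b, 12294 bp upstream, PU.1 called in PU.1+ alone, chr1:170988802-170988881: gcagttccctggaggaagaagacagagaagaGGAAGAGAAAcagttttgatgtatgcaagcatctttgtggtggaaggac

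The last group has TTGCNNAA, the CEBP site, in capitals. The Fcgr2b and Fcgr3 sequences are from introns of related genes, beside stretches that could be aligned, the Fcer1g sequence is from the PU.1 peak that was called in PU.1- alone inside that gene, and the Fcgrt sequence is from the CEBPA peak at the start of the gene without PU.1 peaks.
Fcgr2b intron, CEBPA shared, chr1:170967684-170967763: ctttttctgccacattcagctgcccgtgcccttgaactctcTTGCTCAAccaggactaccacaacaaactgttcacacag
Fcgr3 intron, CEBPA called in PU.1+ alone, chr1:171057439-171057518: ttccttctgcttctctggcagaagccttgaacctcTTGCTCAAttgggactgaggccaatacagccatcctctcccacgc
Fcer1g intron, PU.1 called in PU.1- alone, chr1:171233103-171233182: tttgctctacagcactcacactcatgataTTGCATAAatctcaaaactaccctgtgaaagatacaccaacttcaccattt
Fcgrt, 228 bp upstream, CEBPA shared, chr7:45104040-45104119: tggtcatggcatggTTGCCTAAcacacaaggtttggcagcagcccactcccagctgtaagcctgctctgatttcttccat

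New PU.1 peaks, meaning those called in PU.1+ alone, lay within 20 kb of 6 of the 7 genes. Of all 21951 protein-coding genes, 36.7% met this rule. Fcgr1, Fcgr2b and Tyrobp had 3 new PU.1 peaks each, the highest count of the 7 genes, and 6.80% of protein-coding genes had at least 3. Fcgr3, Fcgr4 and Fcer1g had 1 each, and Fcgrt had none. The genes are not longer than usual, with a median length of 10862 bp against 17403 bp over all protein-coding genes, so their windows were smaller. Shared PU.1 peaks, those that overlapped between the lines by at least 1 bp, were near 4 of the 7 genes against a background of 13.4%. PU.1 peaks called in PU.1- alone were near 3 of the 7 against 13.7%.

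**Figure D1:**
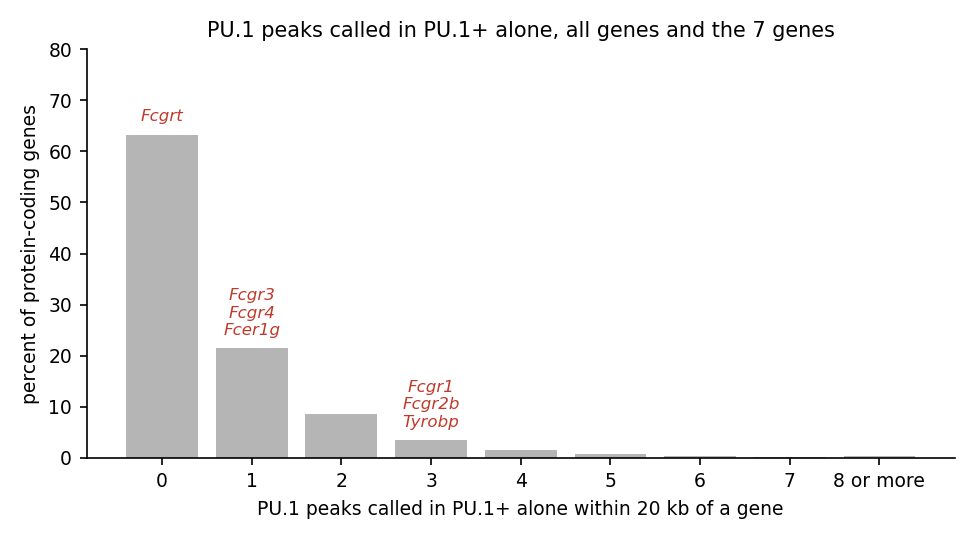
Grey bars show the percent of all 21951 protein-coding genes (vertical axis) by the number of PU.1 peaks called in PU.1+ alone within 20 kb of the gene (horizontal axis), and the names mark where the 7 genes fall. Fcgrt is with the genes that have none, and Fcgr1, Fcgr2b and Tyrobp are at 3 peaks.

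Counted as peaks, 12 of the 19 PU.1 peaks of PU.1+ were new (63.2%, exact 95% confidence interval 38.4-83.7%). Over the whole list 81.1% were new, and among the peaks within 20 kb of any protein-coding gene 80.6% were. Shared peaks made up the other 7 (36.8%, 16.3-61.6%), against 18.9% over the whole list. Both intervals include the share over all peaks, and they cover counting error only. The shared peaks were not spread evenly, for 4 of the 7 were at Fcgr2b.

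Most CEBPA peaks, in contrast, were called in both lines. At the 7 genes, 17 of the 22 CEBPA peaks of PU.1+ were shared and 5 were new (22.7%, 7.82-45.4%), against 12.1% new over the whole list. All 7 genes had a shared CEBPA peak (48.3% of protein-coding genes), 5 had a new CEBPA peak (11.4%) and 5 had a CEBPA peak called in PU.1- alone (30.1%). New peaks of both factors were near 5 of the 7 genes, namely Fcgr1, Fcgr2b, Fcgr3, Fcgr4 and Fcer1g, against 8.23% of protein-coding genes.

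**Figure D2:**
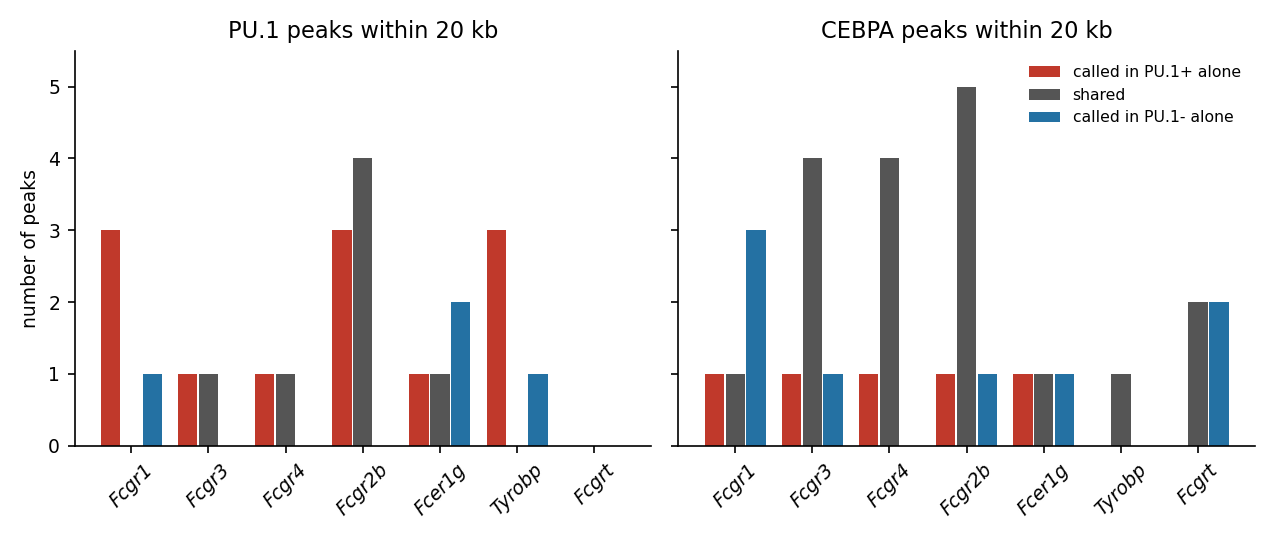
Bars give the number of PU.1 peaks (left) and CEBPA peaks (right) within 20 kb of each gene, called in PU.1+ alone (red), shared (grey) or called in PU.1- alone (blue), with 1 library per antibody and line. Fcgr2b has 4 shared PU.1 peaks, Fcgrt has no PU.1 peak, and shared CEBPA peaks are present at every gene.

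Among the activating receptors, Fcgr1, the high-affinity receptor for IgG (chr3:96282909-96293969, minus strand), had no PU.1 peak in PU.1- inside or upstream of the gene. In PU.1+, new PU.1 peaks appeared at 3 places. The nearest was centred 45 bp upstream of the gene start (chr3:96293815-96294214), a further peak lay 6938 bp upstream (chr3:96300708-96301107) and the last in an intron 9349 bp downstream of the start (chr3:96284421-96284820). The sequence at the start holds GGAAGT 13 bp from the peak centre, and the upstream sequence holds GGAAGT at 22 bp together with the pair of PU.1-IRF sites printed above. The intronic peak held none of these sites in its central 80 bp.

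The upstream Fcgr1 site was also 1 of the places where a CEBPA peak was new (chr3:96300614-96301013), with the centres of the PU.1 and CEBPA peaks 94 bp apart. No CEBP site lay in the central 80 bp of that CEBPA peak, and the nearest was 103 bp from its centre. Inside the gene, 3754 bp from the start, a CEBPA peak was called in PU.1- alone. The remaining peaks of the window lay beyond the end of Fcgr1 near a histone gene cluster. They were a shared CEBPA peak 153 bp from the start of the histone gene Hist2h4, a CEBPA peak called in PU.1- alone at 453 bp from that of Hist2h3b, another CEBPA peak called in PU.1- alone at 1287 bp from Hist2h4 and a PU.1 peak called in PU.1- alone that was 20135 bp from the start of Fcgr1.

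Fcgr3, the low-affinity activating receptor (chr1:171051174-171064935, minus strand), had 1 shared and 1 new PU.1 peak, and both were inside the gene. The shared peak (chr1:171059192-171059591) was centred 12 bp from the start of an internal transcript and overlapped a shared CEBPA peak whose centre was 11 bp away. It had a CEBP site 36 bp from its centre and no GGAAGT in the central 80 bp. The new PU.1 peak (chr1:171057326-171057725) lay in an intron 7410 bp from the gene start and 529 bp from an internal transcript start. A new CEBPA peak (chr1:171057279-171057678) covered the same place, with its centre 47 bp away and a CEBP site 1 bp from that centre. The new PU.1 peak itself held no GGAAGT in any of its 400 bp.

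The other CEBPA peaks of Fcgr3 were in introns 1602 bp and 11416 bp from the start (both shared) and 3206 bp from the start (called in PU.1- alone). A further shared CEBPA peak (chr1:171033801-171034200) lay between Fcgr3 and Fcgr4 and belonged to both windows. It lay outside protein-coding genes, and 12.5% of its 32-base sequences occur elsewhere in the genome.

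Fcgr4, the activating receptor for IgG2 subclasses (chr1:171018920-171029761, plus strand), had a shared PU.1 peak 1336 bp upstream of its start (chr1:171017385-171017784). This was the only shared PU.1 peak of the 7 genes that overlapped no CEBPA peak of PU.1+, although a shared CEBPA peak lay next to it, 1757 bp upstream of the start. The new PU.1 peak of Fcgr4 was 12392 bp upstream (chr1:171006329-171006728). A new CEBPA peak lay on the same place with its centre 3 bp away, the closest pair among the coincident new peaks. The sequence there had GGAAGT 3 bp from the centre of the PU.1 peak, and no CEBP site in any part of the CEBPA peak. The other shared CEBPA peaks were 4191 bp and 7035 bp upstream and 15080 bp downstream of the start, and no CEBPA peak of the Fcgr4 window was called in PU.1- alone.

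Fcgr2b, the inhibitory receptor (chr1:170958617-170976547, minus strand), had the most shared sites of the 7 genes. Its 4 shared PU.1 peaks compare with a background of 0.159% of protein-coding genes that had at least 4. This cut-off is the count of Fcgr2b itself, the highest of the 7 genes. The 4 shared PU.1 peaks lay 8785, 16542, 23151 and 37068 bp downstream of the gene start, the last 2 beyond the end of the gene. For the farthest, the nearest transcript start was that of the neighbouring gene Fcrla, 11896 bp away. That peak is also in the window of Fcrla. Each of the 4 overlapped a shared CEBPA peak, with centres 39, 38, 33 and 56 bp apart in PU.1+, in the same order. At 3 of the 4 places the PU.1 peak centres of the 2 lines were 0 to 10 bp apart. At the intronic place (chr1:170967563-170967962 in PU.1+) they were 123 bp apart, and the CEBP site was 34 bp from the centre in PU.1+ and 89 bp from that in PU.1-.

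The new PU.1 peaks of Fcgr2b were upstream of these shared sites. The nearest (chr1:170975905-170976304) was centred in untranslated sequence 443 bp inside the gene and 23 bp from the start of a transcript, and it held GGAAGT and a PU.1-IRF site within 5 bp of its centre. The others lay 2399 bp and 12294 bp upstream (chr1:170978747-170979146 and chr1:170988642-170989041), and the farther 1 held the PU.1-IRF site printed above. In the nearer of the pair, 17.9% of the 32-base sequences occur elsewhere in the genome, the highest value among the 75 positions. None of the 3 overlapped a CEBPA peak. The CEBPA peak that was new at Fcgr2b was 19646 bp upstream, while a CEBPA peak 705 bp upstream was shared and another in untranslated sequence 17673 bp downstream of the start was called in PU.1- alone.

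**Figure D3:**
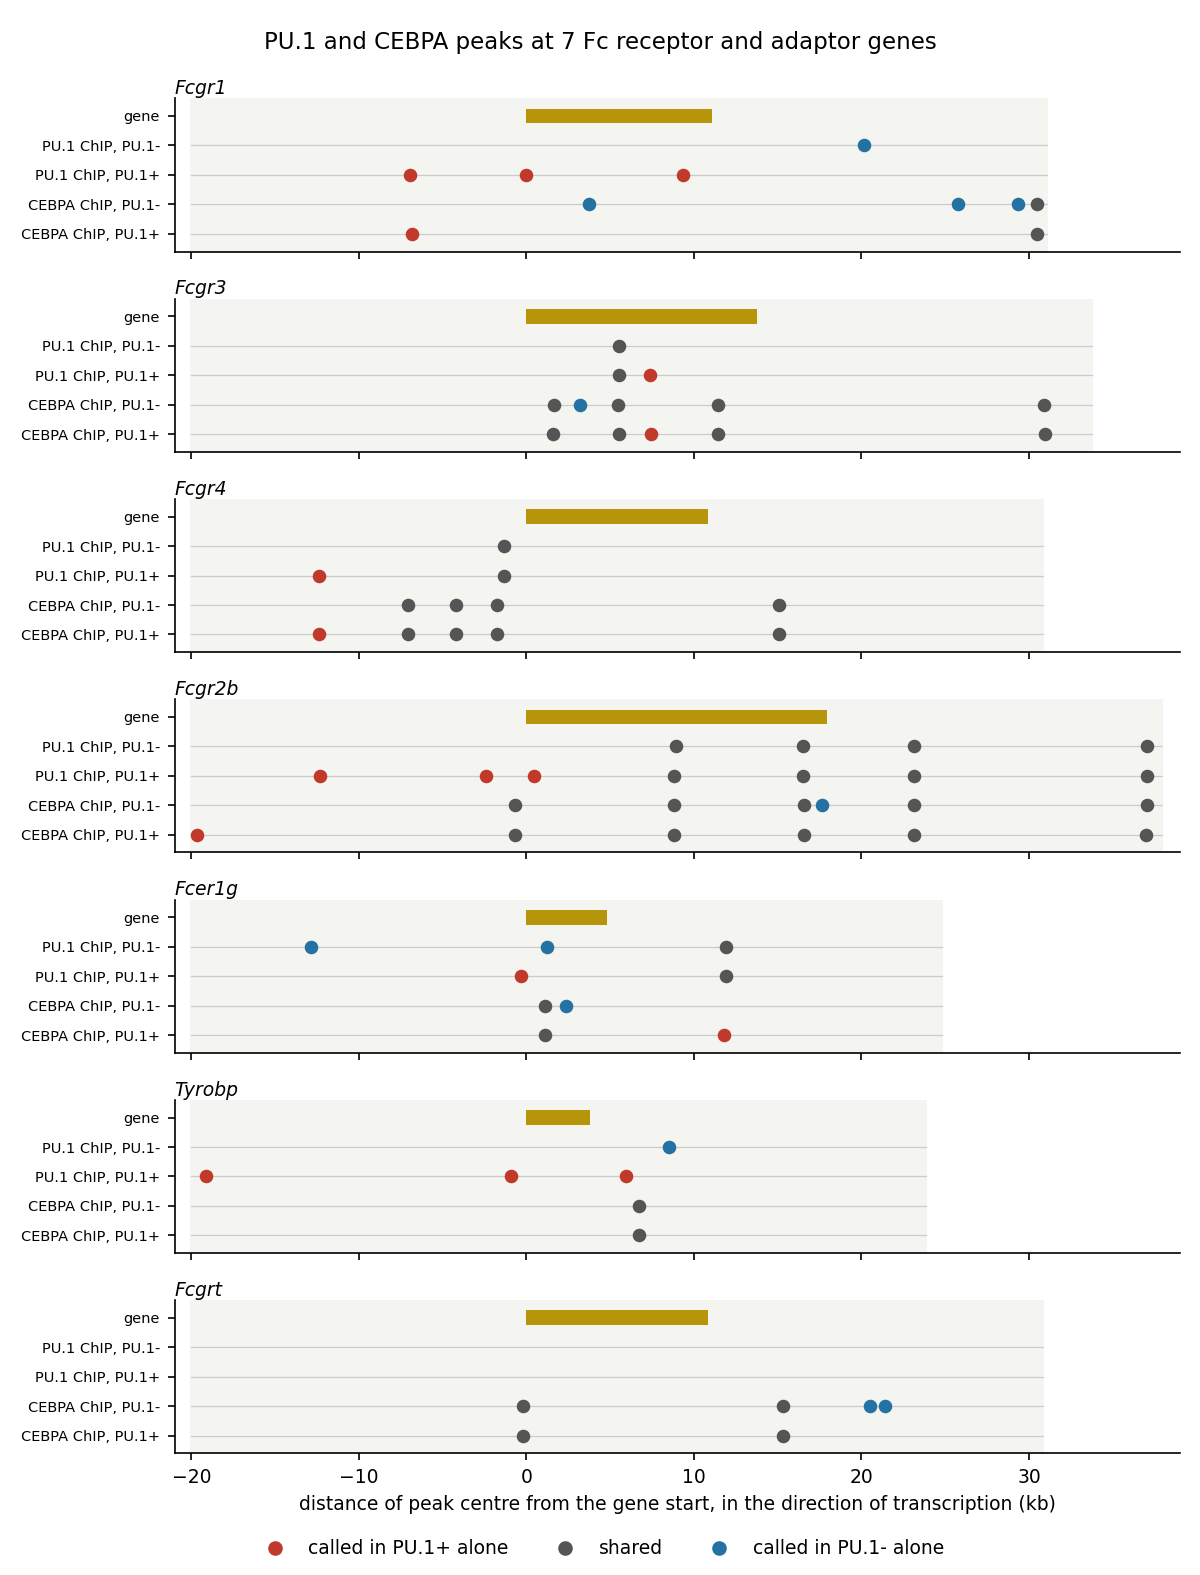
Each panel is 1 gene, with the gene body as a bar at the top and the peaks of the 4 libraries below it as points at the distance of their centre from the gene start, in kb and in the direction of transcription. Red points were called in PU.1+ alone, grey points in both lines and blue points only in PU.1-, and the shaded area is the window of 20 kb to either side. Of the new PU.1 peaks, 1 at each of Fcgr1, Fcgr2b, Fcer1g and Tyrobp lies within 1000 bp of the gene start and the others lie farther away, while the 4 shared PU.1 peaks of Fcgr2b lie downstream of its start.

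The windows of Fcgr2b, Fcgr4 and Fcgr3 follow each other on chromosome 1 over 146 kb. In this stretch, 5 PU.1 peaks were new, 7 were shared and 0 were called in PU.1- alone, and of the CEBPA peaks 3 were new, 13 were shared and 2 were called in PU.1- alone. A shared PU.1 peak with a shared CEBPA peak just outside the windows (chr1:170998148-170998547) is among them. It lay 21800 bp from Fcgr2b and 20573 bp from Fcgr4. Peaks just inside the edge included the new CEBPA peak of Fcgr2b at 19646 bp, a shared CEBPA peak at 19443 bp from the end of Fcgr1, a shared PU.1 peak of Fcgr2b at 19138 bp from the end of the gene and a new PU.1 peak of Tyrobp at 19127 bp.

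Because these receptor genes arose by duplication, the 1000-bp sequences around the peak centres of the 3 genes were aligned in pairs. Of 370 pairs, 8 alignments passed the minimum score of 100, and 4 of them, by far the longest, joined the intronic site of Fcgr2b with that of Fcgr3. Overlapping PU.1 and CEBPA peaks were aligned as separate windows, so these 4 alignments cover the same stretch and are not separate observations. The remaining alignments repeat stretches in the same way. The longest had 430 aligned positions with 85.6% identity, and it ran from inside both peaks into the coding exon next to each. It began beyond the CEBP sites and did not include them. The CEBP sites of the pair (chr1:170967725-170967732 in Fcgr2b and chr1:171057474-171057481 in Fcgr3, both TTGCTCAA) fell on each other only when the stretches were aligned end to end. The 68 bp around the site had 58.8% identity. At this pair of places, PU.1 and CEBPA peaks were called in both lines at Fcgr2b and only in PU.1+ at Fcgr3. Of the 32-base sequences of the Fcgr3 CEBPA peak 6.78% occur elsewhere in the genome, and none of those of the Fcgr2b CEBPA peak do. This comparison was chosen after the sequences had been seen.

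Of the adaptors, Fcer1g (chr1:171229572-171234365, minus strand) had a new PU.1 peak 343 bp upstream of its start (chr1:171234509-171234908). Its sequence contains GAGGAAGT, the form of the ETS site preferred by PU.1, 5 bp from the centre. No CEBPA peak overlapped it. Inside the gene the order was reversed, for a PU.1 peak 1223 bp from the start was called in PU.1- alone (chr1:171232943-171233342), over a CEBPA peak that was called in both lines. The centre of that PU.1 peak was 7 bp from the CEBP site printed above and 79 bp from the nearest GGAAGT. A CEBPA peak 2356 bp from the start was called in PU.1- alone.

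The Fcer1g window also held peaks outside the gene. At the start of Tomm40l, a gene related to the mitochondrial import pore, a PU.1 peak was shared and centred 1 bp from the transcript start in PU.1+, and a new CEBPA peak overlapped it with the centres 95 bp apart.

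Tyrobp (chr7:30413760-30417585, plus strand) had 3 new PU.1 peaks and no shared PU.1 peak. They were 946 bp upstream of the gene start (chr7:30412615-30413014), 19127 bp upstream (chr7:30394434-30394833) and 5919 bp downstream (chr7:30419480-30419879). None of them overlapped a CEBPA peak. The downstream peak was in an intron of Hcst, 123 bp from its start. Hcst encodes DAP10, another adaptor, and is transcribed towards Tyrobp. The far upstream peak held GAGGAAGT on the minus strand 29 bp from its centre and again, on the plus strand, 70 bp from it, beside a run of alternating CA bases, and 9.76% of its 32-base sequences occur elsewhere in the genome. The single CEBPA site of the window was shared and lay 612 bp from the start of Hcst, and a PU.1 peak called in PU.1- alone was 119 bp from that of Nfkbid, an atypical inhibitor of NF-kB.

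Fcgrt (chr7:45092990-45103851, minus strand) was the exception among the 7 genes, with no PU.1 peak in either line, as for 53.7% of protein-coding genes. The nearest PU.1 peaks were 30564 bp away in PU.1- and 132718 bp away in PU.1+. CEBPA was nevertheless called in both lines 228 bp upstream of the start (chr7:45103880-45104279), where the sequence has a CEBP site 22 bp from the centre. The second shared CEBPA peak was 74 bp from the start of Rcn3, a calcium-binding protein of the secretory pathway, with a CEBP site 6 bp from the peak centre. Another 2 CEBPA peaks, at 543 bp and 1435 bp from a start of Rcn3, were called in PU.1- alone.

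The position of the new PU.1 peaks was then compared with that of other peaks. A peak was placed at a transcript start when its centre and the nearest start of any transcript from a protein-coding gene were at most 1000 bp apart. Of the 12 new PU.1 peaks, 6 were at such a start (50%, 21.1-78.9%), while 14.0% of all new PU.1 peaks within 20 kb of a gene were. This interval lies above the share over all peaks, but the peaks were not independent draws, since 3 genes supplied 9 of the 12. The share was not a planned count and was not recomputed under other settings. The 6 included a peak at the start of Hcst. The 7 genes had a median length of 10862 bp, against 17403 bp over all protein-coding genes. Whether their smaller windows alone give such a share was not tested. Counted by gene, 5 of the 7 had a new PU.1 peak within 1000 bp of a start of their own transcripts (Fcgr1, Fcgr2b, Fcgr3, Fcer1g and Tyrobp), against 6.03% of protein-coding genes. With only the outermost start of each gene, it was 4 of the 7, without Fcgr3, against 3.50%. Of the 7 shared PU.1 peaks 2 were at a start, and of the 17 shared CEBPA peaks 6 were, against 22.0% and 22.1% of such peaks near genes.

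New PU.1 peaks and CEBPA coincided at 3 of 12 places (25%, 5.49-57.2%), close to the 23.2% over all new PU.1 peaks. All 3 were places where the CEBPA peak was new too, namely the upstream sites of Fcgr1 and Fcgr4 and the intronic site of Fcgr3. Over all new PU.1 peaks 7.17% met a new CEBPA peak. None of the 12 was on a CEBPA peak of PU.1- (0%, upper limit 26.5%), against 18.1% over all new PU.1 peaks, a difference that this number of peaks cannot show. By gene, 3 of the 7 had a place where both factors were new, and 4.01% of protein-coding genes did.

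Shared PU.1 peaks mostly lay on CEBPA peaks. Of the 7, 6 overlapped a CEBPA peak of PU.1+ (85.7%, 42.1-99.6%), against 58.2% over all shared PU.1 peaks, and they were at Fcgr2b, Fcgr3 and Tomm40l in the Fcer1g window. Shared peaks of this kind were near 3 of the 7 genes and near 7.88% of protein-coding genes. Seen from CEBPA, 4 of the 5 new CEBPA peaks were on a PU.1 peak of PU.1+ (80%, 28.4-99.5%), against 42.6% over all new CEBPA peaks, and 0 of the 17 shared CEBPA peaks were on a new PU.1 peak (upper limit 19.5%), against 11.3%.

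The sites in the sequence were counted as exact matches in the central 80 bp of each peak, on both strands. GGAAGT was in 6 of the 12 new PU.1 peaks (50%, 21.1-78.9%), in 42.9% of all new PU.1 peaks and in 4.48% of windows of the same length centred 2000 bp to either side. These 6 were at the starts of Fcgr1, Fcgr2b and Fcer1g and at distal sites of Fcgr1, Fcgr4 and Tyrobp. The longer GAGGAAGT, which contains GGAAGT, was in 2 of the 12 (15.5% of all new PU.1 peaks, 0.460% of the flanking windows). The PU.1-IRF site, which can overlap GGAAGT, was in 3 of the 12 (25%, 5.49-57.2%), against 13.1% and 0.830%. It was in 0 of the 7 shared PU.1 peaks (6.30% over all) and 0 of the 4 called in PU.1- alone (0.906% over all), shares too low for so few peaks to show a difference.

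In the shared PU.1 peaks GGAAGT was in 3 of 7 (46.1% over all), all at Fcgr2b, and TTGCNNAA was in 2 of 7 (11.5% over all). The 4 PU.1 peaks called in PU.1- alone had GGAAGT in 0 of 4 central windows (upper limit 60.2%), against 29.6% over all peaks of that kind, but in all 4 when the 400 bp were searched (53.8% over all). The CEBP site was in 0 of the 12 new PU.1 peaks (6.33% over all), 2 of the 5 new CEBPA peaks (30.8% over all, 3.58% of flanking windows) and 8 of the 17 shared CEBPA peaks (47.1%, 23.0-72.2%; 39.2% over all, 3.20% of flanking windows). It was in 1 of the 8 CEBPA peaks called in PU.1- alone (28.3% over all). A RUNX site, TGTGGT or TGCGGT, was in 2 of the 12 new PU.1 peaks (10.2% over all), and an AP-1 site, TGANTCA, in 0 of 12 (3.63% over all).

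**Figure D4:**
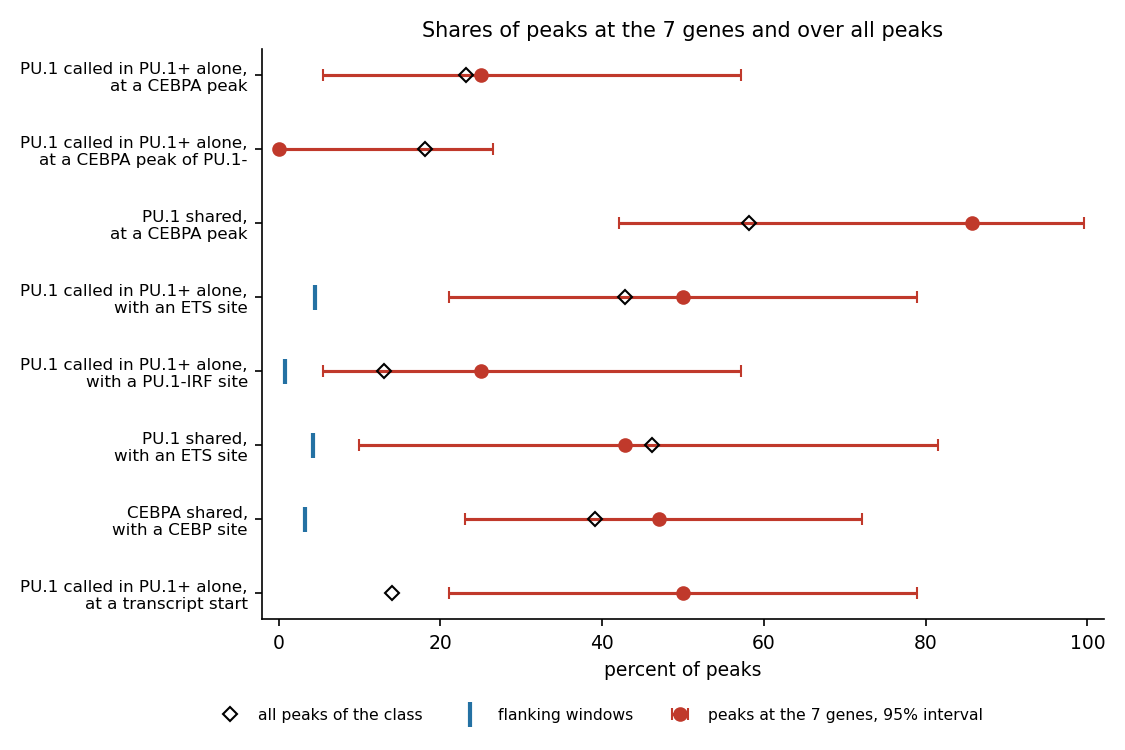
Points with bars are the percent of peaks at the 7 genes in a named class that have a property, with exact 95% intervals from counting error alone, diamonds are the percent over all peaks of the class (for transcript starts, those within 20 kb of a gene), and vertical ticks are flanking windows 2000 bp away. The intervals are wide, and only the share of new PU.1 peaks at a transcript start has its diamond, at 14.0%, outside the interval. That share was not a planned count.

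The other genes of Fc receptor signalling were described by the same count. Of 12 further Fc receptor family genes, 7 had a new PU.1 peak within 20 kb, again against 36.7% of protein-coding genes. Fcrl5 and Fcrls had 3 each, and Fcrla and Fcrlb, which lie next to Fcgr2b, had 2 each. The mast cell IgE receptor chain Fcer1a, the low-affinity IgE receptor Fcer2a, Fcamr, the polymeric immunoglobulin receptor Pigr and the cytosolic antibody receptor Trim21 had none. Of 14 genes listed as receptors that use Tyrobp or Fcer1g, or as their partners or relatives, 11 had such a peak. Clec5a had 4, Pirb, the adaptor gene Hcst and Cd300lb had 2 each, and Sirpb1a, Oscar and Pira2 had none.

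All of the 16 genes for ITAM signalling and its inhibitors had a new PU.1 peak, with a median of 3.5. ITAMs are the tyrosine motifs of Fcer1g and Tyrobp that kinases phosphorylate. The phospholipase gene Plcg2 and the phosphatase gene Inpp5d had 7 each, and Lyn, Lcp2 and Pik3ap1 had 6 each. Several of these genes are far longer than the Fc receptor genes, at 136852 bp for Plcg2 and 100196 bp for Inpp5d, and a longer gene has a wider window. The new PU.1 peaks of Hcst are also in the window of Tyrobp and are not a separate observation. Windows of neighbours within the lists overlap too, as for Fcrla and Fcrlb, Trem1 and Trem3, and Clec4n, Clec4d and Clec4e. The same peak can therefore count at several genes, and the genes of a list are not all separate observations.

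**Figure D5:**
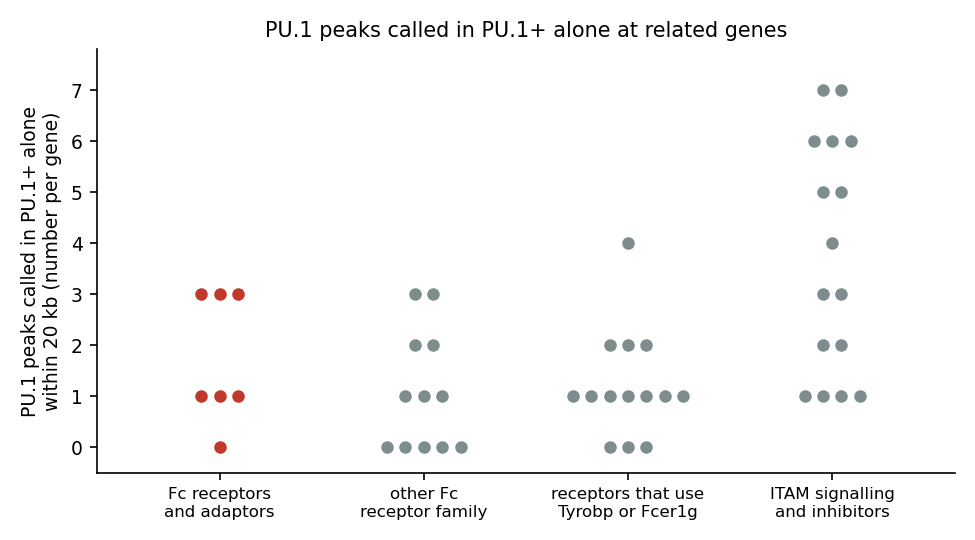
Each point is 1 gene, placed by its number of PU.1 peaks called in PU.1+ alone within 20 kb (vertical axis), for the 7 Fc receptor and adaptor genes (red) and 3 lists of related genes (grey). The ITAM signalling genes reach 7 peaks and none is at 0, while 5 of the other Fc receptor family genes are at 0.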

How the data were processed

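The libraries examined were PU.1 and CEBPA ChIP-Seq of the PU.1- (empty vector) and PU.1+ (PuER) clones, 1 library each, and 4 of the 8 samples of the series had a peak list that was used. H3K27Ac and IgG were not analysed here. According to the submitters' processing notes, the authors used Bowtie2 2.0.6 for mapping to mm10 and called peaks with MACS2 2.0.10. The deposited files hold only coordinates of intervals of 400 bp, per library, and the calling threshold is not given in the sources used here. A peak that is missing from a list may lie just under that threshold.

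Peaks of 1 antibody were called shared when they overlapped by at least 1 bp and were then counted in PU.1+. Genes came from GENCODE release M21 and sequences from the GRCm38 reference. No p-values were computed. Shares have exact (Clopper-Pearson) 95% intervals, which cover counting error only, and the percent over all 21951 protein-coding genes or all peaks of a class is given as the background. Motifs were exact matches on both strands. Repeated sequence was the percent of a peak's 32-base sequences found elsewhere in the genome, and 60 of the 75 positions had none. Alignments scored 2 for a match and -3 for a mismatch.

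The genes, the lists of related genes and the motifs were chosen with earlier results of these data known. The alignments were added after the peak positions had been seen. So were the counts of genes with coincident sites and with new peaks at their own transcript starts. The shares of peaks at transcript starts were not planned either. All 7 genes, every peak in their windows, genes that start within 1000 bp of such a peak and, per list of related genes, the 3 with the most new PU.1 peaks (with ties) and those with none were named. Of 16 genes listed as receptors that use Tyrobp or Fcer1g, or as their partners or relatives, 14 were matched to a protein-coding gene. Peak classes and planted sites in simulated data were recovered at 100%. The simulated shared peaks always overlapped and the planted sites were exact matches. This checks the code and not the accuracy of the deposited lists. Python 3.11.15, numpy 2.4.6, scipy 1.17.1, matplotlib 3.10.9 and bedtools 2.31.1 were used.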

Additional observations from a re-analysis of the deposited data

How the results depend on the processing

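Of 62 recomputed values under other settings, 46 stayed within 1.5 times the reported count and 16 did not. With gene bodies alone, new PU.1 peaks fell to 3, shared PU.1 peaks to 3, PU.1 peaks called in PU.1- alone to 1, new CEBPA peaks to 1, shared CEBPA peaks to 6 and CEBPA peaks called in PU.1- alone to 4, and 3 of the 7 genes had a new PU.1 peak (18.1% of protein-coding genes). Within 10 kb, new CEBPA peaks were 3 and CEBPA peaks called in PU.1- alone were 5, and 5 of the 7 genes had a new PU.1 peak (29.3%). Within 50 kb, shared PU.1 peaks rose to 11 and shared CEBPA peaks to 27, and 6 of the 7 genes had a new PU.1 peak (52.7%). With each peak given to its nearest gene only, PU.1 peaks called in PU.1- alone fell to 1 and CEBPA peaks called in PU.1- alone to 4. Shared PU.1 peaks with an ETS site rose from 3 to 6 when the central 200 bp or the whole peak were searched, and fell to 1 with GAGGAA in place of GGAAGT. An overlap of 50% of both peaks or centres within 100 bp moved no count by over 1.5 times. No paired analysis was possible because each antibody and line was 1 library. Peak heights, read depth and the calling threshold limit the lists, and a site called in 1 line only may differ little between the lines.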
